A study of Homo sapiens with 6 samples.

Results

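10 secreted plasma proteins of the acute-phase and hepatic type were followed in A549, a long-established line of human lung adenocarcinoma cells: the fibrinogen chains FGA, FGB and FGG, the protease inhibitors SERPINA1 and SERPINA3, haptoglobin (HP), lipocalin 2 (LCN2), the serum amyloids SAA1 and SAA2, and apolipoprotein H (APOH). They were chosen by name, and a probe set counted as theirs only where the platform annotation gave it exactly 1 symbol. This gave 24 probe sets for the 10 genes, out of 49293 probe sets other than controls and 18244 named genes. The study knocked down MRPL35, a protein of the mitochondrial ribosome, and asked what this does to growth and survival of lung cancer cells. Its 3 knockdown arrays (KD) came from A549 cells given a lentiviral hairpin against MRPL35, and its 3 control arrays (NC) from A549 cells given a lentiviral control hairpin. The labels state neither the time after transduction, nor how many hairpins were used, nor whether the 3 samples of a group were grown as separate cultures. The p-values therefore rest on the spread among 3 samples a group, and that spread may be technical.

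The acute-phase response is the change in plasma proteins that follows infection or injury. Interleukin-6 and related cytokines act through the receptor subunit gp130 and the transcription factor STAT3. Interleukin-1 acts through NF-kB, and both routes work together with C/EBP factors. For some of the target genes, basal expression in hepatocytes depends on HNF1. Lung epithelium makes several of these proteins as well, among them LCN2 and the serpins, and A549 cells are known to secrete fibrinogen and alpha-1-antitrypsin under inflammatory stimulation.

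Pearson's r between arrays across genes, a description since genes are not independent, was at least 0.994 within a group and at most 0.980 between the groups. NC replicate 2 stood apart on the second principal component, which carried 11.8% of the variance, so the changes of the members are also given without it. MRPL35, by its brightest probe set, was lower by 1.69 on the log2 scale in KD (SE 0.096, change -1.69, limma adjusted p = 3.77e-06, n = 3 per group) without overlap between the groups. Its other probe sets changed by -0.42, -1.37 and -1.98, and each was called lower, so the estimated depth of the knockdown differs between probe sets. The smallest change was on the dimmest of them, at percentile 35.4. In the check of the labelled cell type, the 6 epithelial markers included KRT8 and KRT18, both above the 99.8th percentile of brightness, while ALB, the defining hepatocyte product, lay at percentile 16.05. Of 9 hepatocyte markers 7 lay below the median brightness, as did 7 of 8 neutrophil markers.

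Most of the 10 genes gave weak signals. Brightness is given here as the percentile of a probe set's mean over the 6 arrays among all 49293 probe sets, a rank of signal and not of transcript number, since probes differ in affinity. Of the 24 probe sets 15 lay below the 25th percentile and 5 at or above the median, and these 5 belonged to LCN2, FGA, SERPINA3 and APOH. Over all probe sets 30.6% passed the test (limma, adjusted p under 0.05), 16.5% higher and 14.1% lower in KD. Of the 24 member probe sets 6 rose, 3 fell and 15 did not pass, with a median change of 0.068 against -0.0080 for all probe sets. With 1 probe set per gene, the brightest, 3 of the 10 genes rose (LCN2, FGA and SAA1), 1 fell (FGB) and 6 did not pass, while 33.5% of all genes passed. These shares are near those of all probe sets and all genes. The median change was 0.040 for the 10 genes and -0.018 for all genes.

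**Figure D1:**
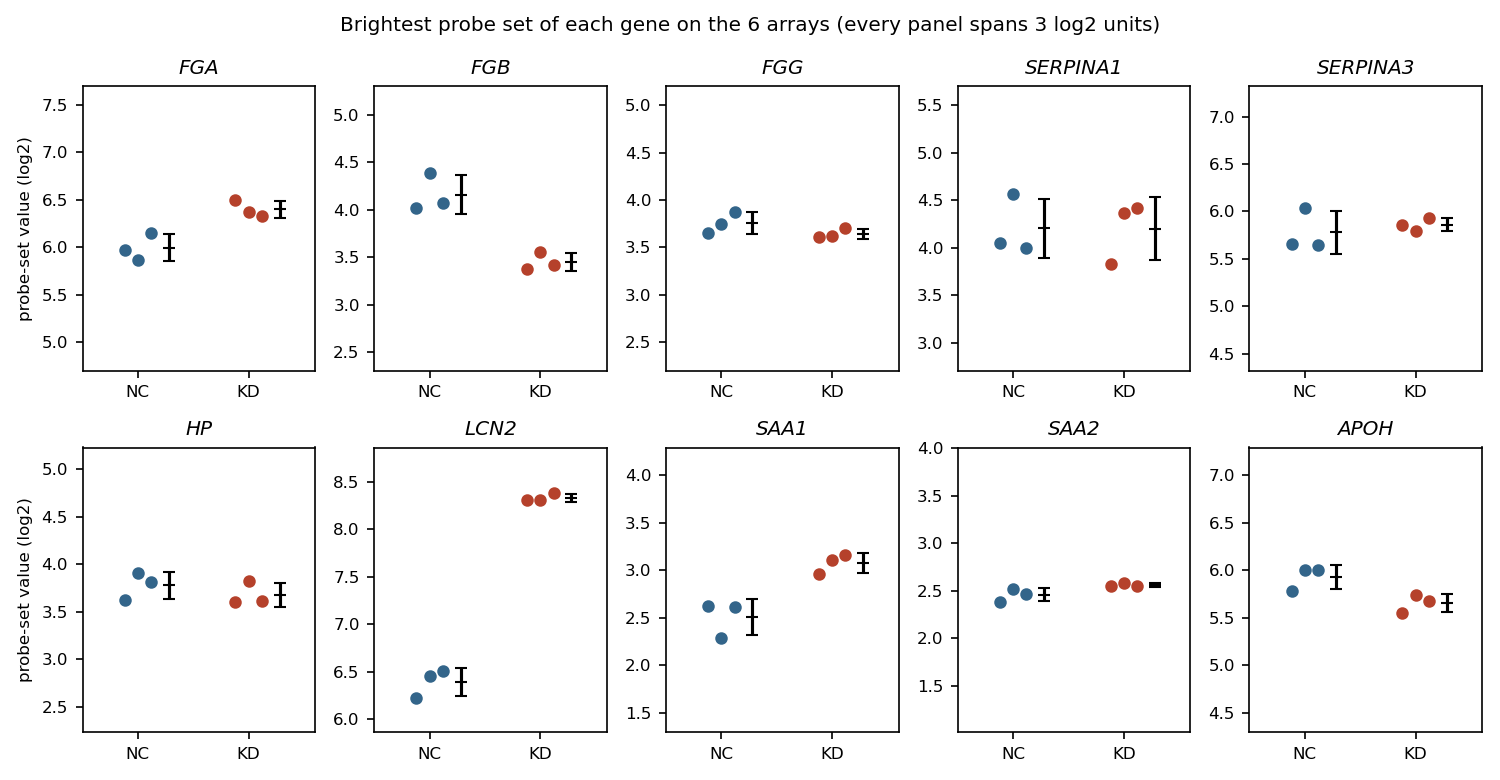
Value (log2) of the brightest probe set of each gene on each array, with NC in blue and KD in red, and the mean and SD of each group in black (n = 3). Every panel spans 3 log2 units, so that distances can be compared between panels; LCN2 shows the widest gap, and FGB is the only called fall.

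LCN2, also called neutrophil gelatinase-associated lipocalin, is a small secreted protein that binds the iron-carrying siderophores of bacteria and is made by stressed or inflamed epithelium. Its single probe set read 8.31, 8.30 and 8.38 on the KD arrays, here and below in the order of replicates 1 to 3. On the NC arrays it read 6.22, 6.45 and 6.50. All KD values lay well above all NC values, and the spread was smaller in KD (SD 0.042) than in NC (SD 0.15). The rise was 1.94 on the log2 scale (SE 0.097, limma adjusted p = 2.62e-06), which is 3.84-fold, and it was 1.97 without NC replicate 2. By 1 probe set per gene, 30 of the 18244 genes had a larger rise. At the 74.8th percentile this was the brightest of the 24 probe sets. No second probe set of LCN2 was there to compare. In a bulk sample more RNA per cell and more cells that make it cannot be told apart. LCN2 is also stored in neutrophil granules. The neutrophil marker list summed to log2 levels between 7.71 and 7.91 on the KD arrays and between 7.67 and 8.03 on the NC arrays. Of its 8 genes 0 were called by limma and 1 had an unadjusted p under 0.05. A549 is a cultured line and 7 of these 8 genes lay below the median brightness, so the list does not test the source of LCN2.

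The fibrinogen genes did not move together. Plasma fibrinogen is assembled from the alpha, beta and gamma chains encoded by FGA, FGB and FGG, which stand next to each other on chromosome 4 and are induced together in the liver. Here FGA rose by its bright probe sets, FGB fell by its dim ones, and FGG gave no call.

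FGA has 5 probe sets, of which 2 gave moderate signals and 3 were dim. The first bright one read 6.47, 6.25 and 6.26 on the KD arrays against 5.68, 5.73 and 5.77 in NC. The second read 6.50, 6.37 and 6.33 in KD against 5.97, 5.87 and 6.15 in NC. On both, every KD array was above every NC array. The changes were 0.60 (SE 0.091, 1.52-fold, limma adjusted p = 0.000923) and 0.41 (SE 0.100, 1.32-fold, limma adjusted p = 0.0125). Without NC replicate 2 the first was again 0.60. The second carries a suffix for possible cross-hybridisation. Its change was 0.34 without NC replicate 2, and in the fit over all probe sets its call was lost without KD replicate 1. The 3 dim probe sets, at percentiles 13.6 to 24.6, changed by -0.21, 0.15 and 0.042, their groups overlapped, and none passed, also without NC replicate 2 (-0.032, 0.19 and 0.11). Which parts of the FGA transcript the 5 probe sets read is not given in the annotation used here.

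FGB has 4 probe sets, all below the 25th percentile. The brightest read 3.37, 3.55 and 3.41 on the KD arrays and 4.01, 4.39 and 4.08 in NC. KD lay below NC on every array, by 0.71 on average (change -0.71, SE 0.11, 1.64-fold lower, limma adjusted p = 0.00125), and the change was -0.60 without NC replicate 2. Another 2 probe sets fell by less, with changes of -0.40 (limma adjusted p = 0.0137) and -0.38 (limma adjusted p = 0.0205) and no overlap between the groups, and the latter carries a suffix for possible cross-hybridisation. Without NC replicate 2 these changes were -0.45 and -0.33. Each lost its call without KD replicate 3 or NC replicate 3, and the -0.40 also without KD replicate 1. The fourth, at the 0.406th percentile, changed by -0.038 and did not pass. Background was not measured for these probe sets, so at such levels the size of the fall need not equal the change in transcript.

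FGG was dim on both of its probe sets, with single values from 2.76 to 3.88. They changed by -0.12 (95% interval -0.32 to 0.086) and 0.11 (95% interval -0.083 to 0.31), with overlapping groups. The limma adjusted p was 0.399 and 0.401, and 0 of the 2 passed at an unadjusted p under 0.05. Without NC replicate 2 the changes were -0.12 and 0.13, and neither passed.

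**Figure D2:**
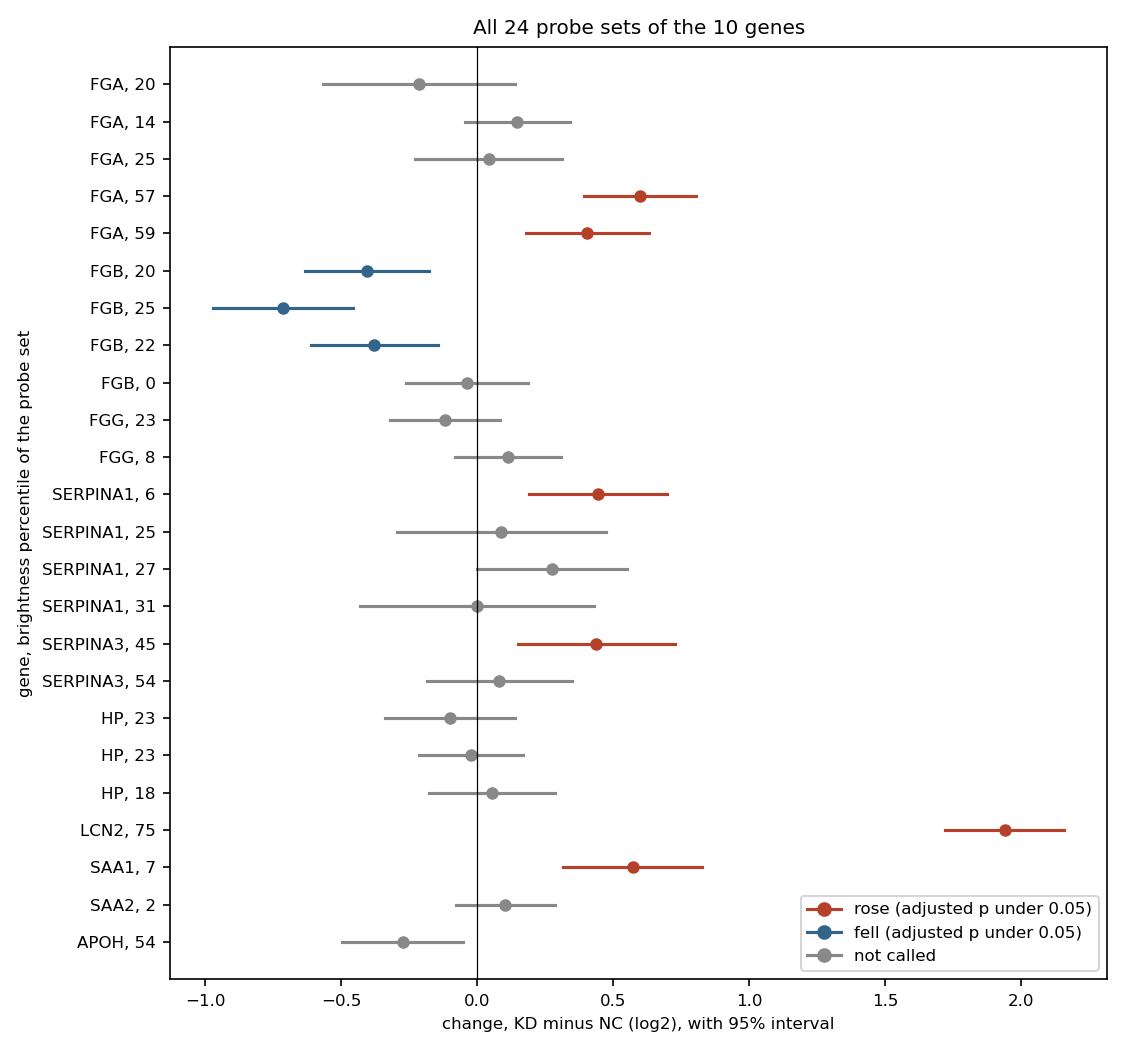
Change in KD against NC (log2, x axis) with its 95% interval for each of the 24 probe sets (y axis, with the gene and the brightness percentile), red where it rose, blue where it fell and grey where it did not pass. The FGA intervals at percentiles 57 and 59 lie above 0, those of FGB at percentiles 20, 22 and 25 below 0, and LCN2 lies far to the right at 1.94.

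Promoter sequence is shown for the members that changed most and had an entry, LCN2, FGA and FGB. Each is the 250 bases before the transcription start from the RefSeq promoter table of GRCh38.p14, written 5′ to 3′ in the direction of the gene. That table matched 7 of the 10 members. Capitals mark matches, on either strand, to 5 motifs: HNF1 (GTTAAT), C/EBP (TTGCNNAA), the interleukin-6 response element (CTGGGAA), STAT (TTCNNNGAA) and the decamer of NF-kB, where N is any base.
LCN2 promoter, GRCh38.p14 chr9:128149203-128149452, plus strand: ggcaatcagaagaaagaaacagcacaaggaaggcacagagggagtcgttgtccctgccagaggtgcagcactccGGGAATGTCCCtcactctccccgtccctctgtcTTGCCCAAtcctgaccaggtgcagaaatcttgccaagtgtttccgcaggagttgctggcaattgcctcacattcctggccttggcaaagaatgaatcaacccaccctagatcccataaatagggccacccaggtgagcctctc
FGA promoter, GRCh38.p14 chr4:154590743-154590992, minus strand: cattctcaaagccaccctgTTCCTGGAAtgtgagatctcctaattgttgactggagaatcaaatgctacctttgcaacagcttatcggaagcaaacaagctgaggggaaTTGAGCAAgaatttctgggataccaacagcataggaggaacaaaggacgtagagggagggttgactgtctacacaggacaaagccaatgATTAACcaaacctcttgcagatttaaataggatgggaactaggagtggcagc
FGB promoter, GRCh38.p14 chr4:154562761-154563010, plus strand: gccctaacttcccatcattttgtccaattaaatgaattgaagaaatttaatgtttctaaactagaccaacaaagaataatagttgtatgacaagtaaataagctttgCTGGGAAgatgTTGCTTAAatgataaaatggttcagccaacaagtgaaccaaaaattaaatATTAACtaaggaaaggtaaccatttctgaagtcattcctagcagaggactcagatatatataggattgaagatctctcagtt
The LCN2 window held an NF-kB match on each strand, which overlap and begin 176 and 175 bases before the start, and a C/EBP match that begins at 143. Among all 35116 promoter windows of this length 4.31% held the NF-kB letters and 9.05% the C/EBP letters. The FGA window held a STAT match (6.57% of all windows), a C/EBP match and an HNF1 match (6.23% of all windows). FGB has 2 windows in the table, and the one shown held an interleukin-6 element (9.15% of all windows), a C/EBP match and an HNF1 match. The FGA and FGB windows both held the C/EBP and HNF1 letters. Any bearing of the matches on the changes was not tested. In FGG the window held the interleukin-6 element alone. The APOH window and 1 SERPINA1 window held HNF1 letters alone, and the SERPINA3 window and the other SERPINA1 window held no match. A match is a description of letters and does not show binding.

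The serpin inhibitors gave small and uneven changes. SERPINA1 encodes alpha-1-antitrypsin, the main inhibitor of neutrophil elastase, and SERPINA3 encodes alpha-1-antichymotrypsin, an inhibitor of cathepsin G. One of the 2 SERPINA3 probe sets, at the 44.9th percentile, read 5.26, 5.29 and 5.66 on the KD arrays against 4.97, 4.81 and 5.11 in NC. KD was above NC on every array, and the rise was 0.44 (SE 0.13, 1.35-fold, limma adjusted p = 0.0280). This call was lost without KD replicate 3 (adjusted p = 0.101), without NC replicate 1 (0.0704) and without NC replicate 2 (0.0624), within a range of 0.00780 to 0.199 over its limma alternatives. The brighter SERPINA3 probe set read 5.86, 5.79 and 5.93 in KD against 5.65, 6.04 and 5.65 in NC. There NC replicate 2 lay above every KD array, and the change was 0.081 (95% interval -0.18 to 0.35, limma adjusted p = 0.681), or 0.21 without NC replicate 2.

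SERPINA1 has 4 probe sets, all below the 31st percentile. The dimmest, at percentile 6.41, read 3.03, 2.83 and 3.14 on the KD arrays and 2.41, 2.71 and 2.56 in NC, a rise of 0.44 (SE 0.11, limma adjusted p = 0.0142). This call was lost without KD replicate 3 or NC replicate 1, and the rise was 0.52 without NC replicate 2. The brightest read 3.83, 4.37 and 4.42 in KD and 4.05, 4.57 and 3.999 in NC. The arrays of both groups were mixed there, and the change was -0.0016 (95% interval -0.43 to 0.43, limma adjusted p = 0.997). The remaining ones changed by 0.089 and 0.27 and did not pass. Without NC replicate 2 the latter, which carries a suffix for possible cross-hybridisation, was 0.37 and passed (limma adjusted p = 0.0382), and the former was 0.16 and did not. The sign of the brightest one's change turned in several alternatives, and no direction is read for SERPINA1 from it.

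Haptoglobin (HP), which binds free haemoglobin, was dim on its 3 probe sets, with single values from 3.27 to 3.90. Their changes ran from -0.10 to 0.054, with 95% intervals between -0.34 and 0.29 and overlapping groups. The limma adjusted p was 0.557 to 0.887, and 0 of the 3 passed at an unadjusted p under 0.05. Without NC replicate 2 the changes ran from -0.038 to 0.025, and none passed. All 3 carry a suffix for possible cross-hybridisation. HPR, its close relative and neighbour on chromosome 16, changed by -0.012 (limma adjusted p = 0.940).

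The serum amyloids SAA1 and SAA2 are nearly identical apolipoproteins of high-density lipoprotein that rise steeply in the acute phase. The only SAA1 probe set carries the suffix for possible cross-hybridisation, and whether it also reads SAA2 is not given in the annotation used here. It read 2.96, 3.11 and 3.17 on the KD arrays and 2.62, 2.29 and 2.61 in NC. All KD values were above all NC values, with a rise of 0.57 (SE 0.11, limma adjusted p = 0.00399), or 0.46 without NC replicate 2, but at percentile 6.66 the signal was among the dimmest on the array. The SAA2 probe set, at percentile 1.93, read 2.55, 2.58 and 2.55 in KD and 2.38, 2.52 and 2.46 in NC. KD lay above NC there too, by 0.10 (95% interval -0.079 to 0.29, limma adjusted p = 0.410), or 0.14 without NC replicate 2, and did not pass either way.

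A further pair of probe sets is assigned by the annotation to both SAA1 and SAA2, so it belongs to neither gene here. One of them read 4.44, 4.50 and 4.55 on the KD arrays and 3.25, 3.71 and 3.46 in NC. It was brighter than either gene's own probe set, at percentile 27.4, and its groups were well apart. It rose by 1.02 (SE 0.12, 2.03-fold, limma adjusted p = 0.000186), or 1.14 without NC replicate 2, and was called in all 12 alternatives run on it. The other changed by 0.18 and did not pass (limma adjusted p = 0.316). SAA4, the constitutive serum amyloid, changed by -0.061 (limma adjusted p = 0.710). The shared probe sets do not assign their signal to SAA1 or to SAA2.

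Apolipoprotein H, or beta-2-glycoprotein I, binds anionic phospholipids. Its single APOH probe set, at the 53.5th percentile, read 5.55, 5.74 and 5.67 on the KD arrays and 5.78, 6.00 and 6.00 in NC. Every KD array was below every NC array, as for 20.0% of all probe sets, but the nearest arrays of the groups read 5.74 and 5.78. The change was -0.27 (SE 0.098, 95% interval -0.50 to -0.052), and the limma adjusted p of 0.0650 missed the threshold, as it did without NC replicate 2 (change -0.24, adjusted p = 0.116). It passed in 5 of 14 alternatives, with an adjusted p between 0.0353 and 0.700 over them.

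Across the 24 probe sets the groups did not overlap for 12, against 42.5% of all probe sets. Only LCN2 among the 10 genes changed by more than 1 on the log2 scale by a probe set of its own. The next largest changes, in FGB, FGA and SAA1, lay between 0.57 and 0.71 in size.

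**Figure D3:**
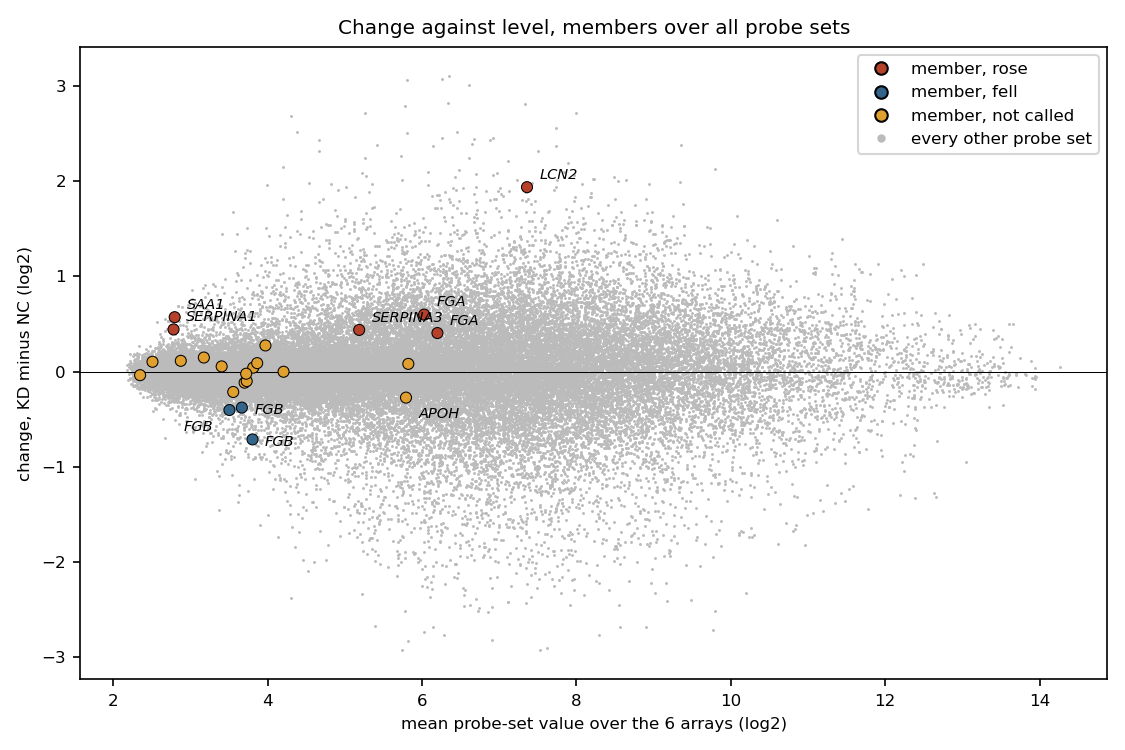
Change in KD against NC (log2, y axis) over the mean value on the 6 arrays (log2, x axis), for every probe set in grey and the 24 member probe sets in colour. Most members sit at the dim left end; LCN2, at a change of 1.94, stands above most of the cloud, and the FGB falls and the SAA1 and SERPINA1 rises lie at the margin of the dim probe sets.

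The genes around the members were followed in 10 lists, with 181 of 198 distinct genes measured and 1 probe set per gene. They are described by counts, read against the 33.5% of all genes that passed (17.6% higher, 15.9% lower). In the list of cytokine receptors and JAK-STAT3 signalling 9 of 16 genes rose and 3 fell, and the median change was 0.29. OSMR, the oncostatin M receptor subunit (0.57, SE 0.12), and STAT3 (0.44, SE 0.080) rose, and STAT5B (-0.96, SE 0.15) and PTPN11, the phosphatase SHP2 (-0.42, SE 0.12), fell. Outside the rule for naming genes, the receptors LIFR (0.66, SE 0.096) and IL6R (0.54, SE 0.11) and the feedback inhibitor SOCS3 (0.52, SE 0.12) also rose. IL6ST, the shared subunit gp130, fell (-0.36, SE 0.12). The genes outside the rule were picked out after their values were seen. OSMR and STAT5B each have another probe set called the other way, and PTPN11 was called on 1 of its 4 probe sets, the others reaching up to 0.18. STAT3 was called on 2 of its 3 probe sets, with a lowest change of 0.24. Among the inducing cytokines 3 of 11 rose, and 8 did not pass. LIF (0.32, SE 0.074) and TGFB1 (0.45, SE 0.12) rose. The dim IL6 (0.36, SE 0.086) rose as well, outside the rule for naming genes, and is given after its values were seen. LIF was called on 1 of its 3 probe sets.

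In the list of the interleukin-1 and NF-kB route 5 of 20 genes rose and 2 fell, with a median of 0.011. NFKBIZ, the nuclear cofactor IkB-zeta that is known to be needed for LCN2 induction, rose by 0.98 (SE 0.100). NFKBIA, the inhibitor IkB-alpha (0.55, SE 0.088), and the receptor kinase IRAK1 (0.78, SE 0.10) rose as well. The 2 that fell, given outside the rule for naming genes, were NFKB1 (-0.26, SE 0.074) and NFKBIB (-0.33, SE 0.075). The subunit RELA changed by 0.0062 and did not pass. The receptor partner IL1RAP rose by its brightest probe set (1.01, SE 0.099) and fell by another of its 4. Of the hepatic and C/EBP factors 1 of 16 rose and 5 fell, with a median of -0.20. CEBPD rose (0.93, SE 0.093), on all 5 of its probe sets. CEBPG (-1.44, SE 0.071), NR5A2, a nuclear receptor of liver and pancreas (-0.82, SE 0.077), and FOXA2 (-0.41, SE 0.11) fell. CEBPG was called on 1 of its 2 probe sets, and the other changed by -0.18.

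Among other acute-phase plasma proteins 4 of 21 rose and 1 fell, with a median of -0.012, and 16 of them lay below the median brightness. The complement genes C3 (2.13, SE 0.083) and CFB (1.47, SE 0.14) rose, and so did FGL1, a fibrinogen-like hepatic protein (1.22, SE 0.077). CFB was called on 3 of its 4 probe sets, with a lowest change of 0.087. Of the other hepatic plasma proteins 6 of 31 rose and 1 fell, with a median of 0.042. The coagulation inhibitor TFPI (0.75, SE 0.100), the retinol carrier RBP4 (0.65, SE 0.13) and APOE (0.64, SE 0.15) rose, and APOC1 fell (-0.94, SE 0.074). APOC1 was called on 2 of its 4 probe sets, which changed by -1.03 to -0.12. SERPINF1, pigment epithelium-derived factor, which is in this list and in that of the other serpins, rose by 1.53 (SE 0.17) at a level below the limit for naming, and is given after its values were seen. The list of other serpins had 6 of 19 higher and 2 lower. Above that limit the risers were led by SERPINI1, neuroserpin (1.82, SE 0.081), SERPINB8 (0.77, SE 0.073) and SERPINB1 (0.57, SE 0.096), and SERPINB9, the granzyme B inhibitor, fell (-0.85, SE 0.10), on 1 of its 4 probe sets, the others reaching up to 0.20. SERPINB8 was called on 3 of its 4 probe sets, with a lowest change of -0.084. In the lipocalin list, apart from LCN2, 2 of 17 rose, RBP4 and AMBP (0.46, SE 0.078), and 15 did not pass. AMBP was called on 2 of its 3 probe sets, with a lowest change of -0.083.

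Receptors, partners and proteases of the members had 6 of 22 genes higher and 16 not called, with a median of -0.019. TGM2, the transglutaminase that can cross-link fibrinogen (1.24, SE 0.081), PLAU, the urokinase that activates plasminogen (1.13, SE 0.074), LRP1, a receptor that clears serpin-protease complexes (0.95, SE 0.11), and SCARB1, a lipoprotein receptor that also binds serum amyloid A (0.48, SE 0.089), rose. LRP1 was called on 2 of its 4 probe sets and SCARB1 on 2 of its 3, with lowest changes of 0.065 and -0.062. In the secretory folding list 7 of 20 rose and 3 fell, with a median of 0.17. CALR (0.79, SE 0.16), TRAM1 (0.77, SE 0.073) and MCFD2, part of a cargo receptor for secreted proteins (0.60, SE 0.11), rose, and the coat subunit SEC24A fell (-1.29, SE 0.10). All SE here are from the limma fit over all genes with n = 3 per group.

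**Figure D4:**
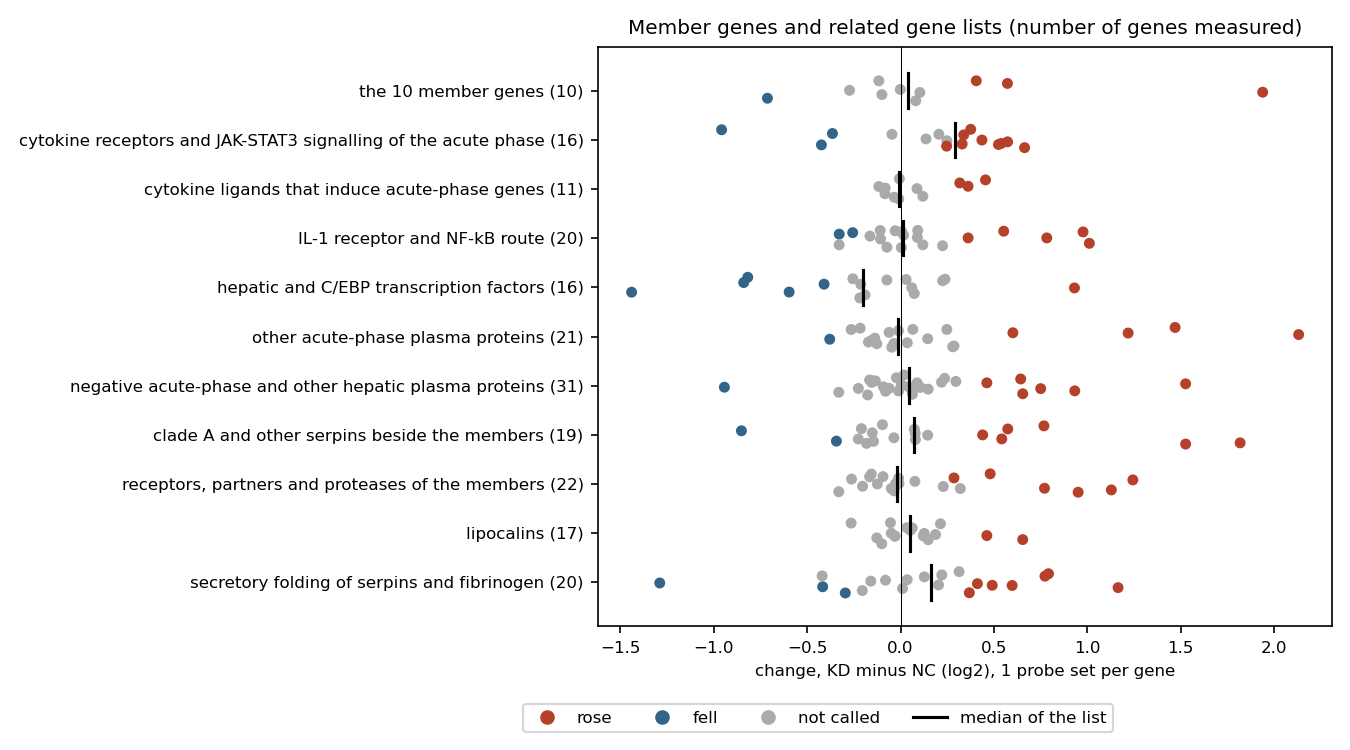
Change in KD against NC (log2, x axis) of each gene of the 10 members and of the 10 lists (y axis, number of genes measured), 1 probe set per gene, red where it rose, blue where it fell and grey where it did not pass, with each list's median as a black bar. The median of the cytokine receptor list lies at 0.29 and that of the hepatic factors at -0.20, while single genes such as C3, at 2.13, lie far from their list's median.

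Marker lists of other cell types are given beside these changes. The hepatocyte list summed to log2 levels between 8.35 and 8.48 on the KD arrays and between 8.28 and 8.36 on the NC arrays, with 0 of 9 genes called by limma and 1 at an unadjusted p under 0.05. The macrophage list summed to between 8.34 and 8.43 on the KD arrays and between 8.18 and 8.41 on the NC arrays, where 1 of 7 genes, CD14, rose. In the epithelial list 4 of 6 genes rose, among them CDH1, and the sum was 15.2 on the KD arrays against 14.7 to 14.8 on the NC arrays. The alveolar type II list had 1 of 9 genes higher, ABCA3, with a sum of 9.58 to 9.65 in KD and 8.96 to 9.20 in NC, and the airway secretory list 1 of 6, MUC5B, with 8.08 to 8.20 in KD and 7.26 to 7.57 in NC. The part of these shifts in the changes of LCN2 and the other members was not tested. The lymphocyte, fibroblast and endothelial lists, of 6 genes each, had 0 genes called by limma and 0 at an unadjusted p under 0.05.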

How the data were processed

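Total RNA of 3 KD and 3 NC samples was extracted with Trizol and hybridised as biotin-labelled cRNA to Affymetrix arrays, per the labels' protocols. The authors deposited log2 values for 49395 probe sets; the log base was not written and was taken from the range (2.05 to 14.3, array medians 5.49 to 5.55). The authors' summarisation and normalization are not given in the sources used here. They set what counts as unchanged and can compress changes of dim genes, and background per probe set was not measured. The source names in the labels read A550 for NC replicate 2 and A551 for NC replicate 3, while the characteristics of both give A549.

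The number of arrays limits the precision. Probe sets were named by the platform annotation: 45278 had 1 symbol, 1333 several, 2682 none, and 102 were controls. For counts over genes, each gene was its brightest probe set. Genes and probe sets were fitted separately with limma 3.58.1 (R 4.3.3; lmFit, eBayes, group as the only term), with Benjamini-Hochberg adjustment over all features and a threshold of 0.05. Steps were tested on simulated data. The members and lists were chosen with earlier results of these data known. Of each list up to 4 genes with the largest called changes were named, with groups not overlapping and a higher mean of at least 6.21, the median gene's level. Of these 34 genes 24 have several probe sets, and 3 have a probe set called the other way. Every probe set was called the same way for 20 of the 34, which include those with 1 probe set. List genes given outside this rule were not checked for agreement between probe sets. Alternatives were quantile normalization, median centring, trend with robust fitting, array weights, a block by replicate number, averaging all probe sets of a gene, leaving out x and s probe sets, leaving out features below the 40th percentile, each array left out, a threshold of 0.01 and treat against 0.2. Figures were drawn with matplotlib 3.10.9.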

Additional observations from a re-analysis of the deposited data

How the results depend on the processing

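LCN2 (change 1.85 to 2.00), FGB (-0.79 to -0.38) and SAA1 (0.46 to 0.63) kept their direction and call in every alternative in which they were tested. Leaving out x and s probe sets removed FGG, HP and SAA1, and leaving out dim genes removed FGB, FGG, SERPINA1, HP, SAA1 and SAA2. FGA lost its call with the mean of its probe sets (change 0.20, limma adjusted p = 0.0688), with treat and at the threshold of 0.01. SERPINA3 gained a call with the mean of its probe sets (0.26, limma adjusted p = 0.0416), and without x and s probe sets (0.44, limma adjusted p = 0.0260). SERPINA1 turned sign with array weights (0.18), the mean of its probe sets (0.20) and quantile normalization (0.0045), and without KD replicate 1 (0.19) or NC replicate 2 (0.18), within -0.11 to 0.19 without single arrays, and never with a call. The causes were not tested.

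The number of member genes that fell was 2, with APOH added, under quantile normalization, median centring and the replicate block; it was 2, again with APOH, when the probe sets of each gene were averaged, with SERPINA3 in place of FGA among the 3 rises, and 1 to 2 without single arrays, where the rises stayed at 3. With treat 3 member probe sets rose and 1 fell, as at the threshold of 0.01, where the fall was FGB; with dim probe sets left out, which removed FGB, 1 fell, APOH (limma adjusted p = 0.0389). Without single arrays 4 to 6 rose and 1 to 4 fell. Over all genes treat called 1931 higher and 1826 lower, and over all probe sets 4680 and 4144. Without x and s probe sets, 34921 remained, with 5265 higher and 4393 lower. Without single arrays 2612 to 3467 genes were called higher and 2343 to 3279 lower, and 6328 to 8393 probe sets higher and 5471 to 7841 lower. MRPL35 stayed between -1.76 and -1.61 without single arrays. Whether the replicate numbers pair the samples cannot be settled with 3 arrays a group. The deviations of same-numbered samples from their group's mean correlated at 0.25, 0.26 and -0.096 across genes. KD replicate 1 correlated best with NC replicate 3 (0.29). For KD replicates 2 and 3 the best was NC replicate 2 (0.26 and 0.15). The replicate block changed no member gene's call other than that of APOH. The planned change of pseudocount was not run, since the values are already on a log scale. Signals near the dim end limit what can be said of FGB, FGG, SERPINA1, HP, SAA1 and SAA2.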

Other observations

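The neighbours of the members on their chromosomes were looked up after the members' values were seen, as the 2 protein-coding genes on each side in RefSeq order (GRCh38.p14). Of 27 measured neighbours that are not members, 6 rose and 3 fell (limma, adjusted p under 0.05), which is 33.3% against 33.5% of all genes. Beside LCN2 on chromosome 9, BBLN rose by 0.88 and SLC25A25, a mitochondrial carrier, by 0.51, while PTGES2, between SLC25A25 and LCN2, changed by 0.00032. Around the fibrinogen genes on chromosome 4, PLRG1 changed by -0.100 and LRAT by -0.35, and neither passed. Beside SERPINA3 on chromosome 14, SERPINA5, the protein C inhibitor, rose by 0.54 and DICER1 fell (-0.58). Beside HP on chromosome 16, TXNL4B fell (-0.73), and beside SAA1 on chromosome 11, HPS5 (0.26) and GTF2H1 (0.42) rose. Around APOH on chromosome 17, CEP112 rose by 0.46 and AXIN2 fell (-0.38).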
